A study of Mus musculus with 2 samples.

Results

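The 8 microRNA (miRNA) genes Mir337, Mir540, Mir665, Mir431, Mir433, Mir127, Mir434 and Mir136 were followed in the adrenal gland, out of 2202 miRNA genes counted. They were chosen by their GENCODE M21 symbols and by their place on chromosome 12, in the stretch antisense to the gene Rtl1. MicroRNA sequencing was done on adrenal glands of male B6CASTF1/J mice aged 10 days, F1 hybrids of C57BL/6 and CAST/EiJ mice. Both libraries belong to the only group, with no treatment named, and per the labels biological replicates 1 and 2 came from 2 different males. Beyond the strain name, the sources used here do not say which strain was the mother, and they do not say whether the glands of a mouse were pooled. The files hold no second condition and no allele counts, so the values below describe levels along the locus and the difference between the 2 libraries.

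The Dlk1-Dio3 region is imprinted. Its protein-coding genes Dlk1, Rtl1 and Dio3 are expressed from the paternal chromosome, and its noncoding transcripts Meg3, antisense Rtl1 and Rian, with the miRNAs they carry, from the maternal one. Rtl1 is a gene derived from a retrotransposon and needed in the placenta, and in the mouse miRNAs cut from the transcript of the other strand can guide cleavage of the Rtl1 mRNA, to which they are fully complementary. Each hairpin can give a mature miRNA from its 5′ arm and one from its 3′ arm, and bases 2 to 8 of the mature miRNA, the seed, do most of the target recognition. The deposited counts are per hairpin and do not separate the arms.

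The 8 hairpins spanned 9600 bases of mm10, from 109585789 to 109595388 on the + strand of chromosome 12, and none lay inside an annotated + strand host gene in GENCODE M21. The label "antisense to Rtl1" held for 5 of the 8 in that annotation. Mir431, Mir433, Mir127, Mir434 and Mir136 lay entirely within the coding sequence of Rtl1, which occupies 109590172 to 109595403 on the other strand. Mir337, Mir540 and Mir665 lay 3307, 3046 and 2785 bases past the 3′ end of the GENCODE gene. The RefSeq gene model of Rtl1 on the same build, from 109564900 to 109604418, encloses all 8. Along the + strand, Mir337 (ENSMUSG00000065526.4) occupied 109585789 to 109585885, Mir540 (ENSMUSG00000072900.2) 109586080 to 109586146 and Mir665 (ENSMUSG00000076313.1) 109586314 to 109586407. Mir431 (ENSMUSG00000070080.1) occupied 109590447 to 109590537, Mir433 (ENSMUSG00000070072.1) 109591715 to 109591838 and Mir127 (ENSMUSG00000070076.2) 109592846 to 109592915. Mir434 (ENSMUSG00000070133.1) occupied 109594506 to 109594599 and Mir136 (ENSMUSG00000104858.1) 109595327 to 109595388. A gap of 4039 bases separated Mir665 from Mir431, whereas the other gaps ran from 167 to 1590 bases.

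The mature miRNAs of all 8 hairpins are shown because the level, the Rtl1 match and the base composition below refer to them. They come from RefSeq on GRCm38.p6, which is the mm10 build, where all 8 hairpins matched GENCODE in coordinates and sequence. The seed is in capitals, and the order follows the transcript.
miR-337-5p: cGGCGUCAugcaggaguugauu
miR-337-3p: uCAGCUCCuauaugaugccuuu
miR-540-5p: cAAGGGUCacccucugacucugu
miR-540-3p: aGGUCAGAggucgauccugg
miR-665-5p: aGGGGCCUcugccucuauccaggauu
miR-665-3p: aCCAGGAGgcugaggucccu
miR-431-5p: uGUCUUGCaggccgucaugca
miR-431-3p: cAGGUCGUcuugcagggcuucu
miR-433-5p: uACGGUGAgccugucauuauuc
miR-433-3p: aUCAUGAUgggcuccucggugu
miR-127-5p: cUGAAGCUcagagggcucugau
miR-127-3p: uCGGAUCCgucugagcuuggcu
miR-434-5p: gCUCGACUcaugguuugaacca
miR-434-3p: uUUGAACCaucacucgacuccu
miR-136-5p: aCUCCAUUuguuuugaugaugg
miR-136-3p: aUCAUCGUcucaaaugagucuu

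The 16 mature miRNAs had 16 different seeds, so no hairpin shared a seed with another of the set. Only miR-540-3p shared its seed with another gene of the RefSeq table, Mir6915. That was 1 of 16, against 32.0% of all 1738 mature miRNAs in the table whose seed recurs in another gene. None of the 8 hairpins shared a run of 18 bases with another of the 2202 counted genes, so the set had no near-identical copy among them.

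All 10 mature miRNAs of Mir431, Mir433, Mir127, Mir434 and Mir136 had 1 perfectly complementary site in the Rtl1 transcript, inside its 5232 bases of coding sequence (without the stop codon). The 6 of Mir337, Mir540 and Mir665 had none in that transcript, which ends before it reaches them. The matches follow from position, because the strand opposite a hairpin carries its complement, and are not a separate result. For each of the 5 hairpins the site of the 3′ arm is shown, because these 5 hairpins lie opposite the coding sequence; other miRNA genes of the region were not searched for such sites, apart from Mir3544. Bases in capitals pair with the seed.
Rtl1 site of miR-431-3p: agaagccctgcaagACGACCTg
Rtl1 site of miR-433-3p: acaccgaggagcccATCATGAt
Rtl1 site of miR-127-3p: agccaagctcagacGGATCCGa
Rtl1 site of miR-434-3p: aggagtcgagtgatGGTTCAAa
Rtl1 site of miR-136-3p: aagactcatttgagACGATGAt
Counted from the first base of the start codon, these sites began at base 4881 for miR-431-3p, 3602 for miR-433-3p, 2495 for miR-127-3p, 818 for miR-434-3p and 17 for miR-136-3p. The sites thus ran through most of the coding sequence, with that of Mir136 next to the start codon and that of Mir431 near the end. Their sequence is that of the C57BL/6J reference, and the CAST/EiJ copy was not analysed here. Rtl1 mRNA is not measured by these short-fragment libraries.

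Mir434 also carried an internal repeat. Its hairpin is shown with both mature miRNAs in capitals.
Mir434 hairpin: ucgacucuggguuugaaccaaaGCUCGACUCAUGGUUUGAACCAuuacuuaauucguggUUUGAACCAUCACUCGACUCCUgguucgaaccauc
The 13 bases UGGUUUGAACCAU occurred in it 2 times, and 0.796% of the 1005 RefSeq hairpins held an exact repeat at least as long. Mir431 and Mir540 each held a repeat of 10 bases, a length reached by 2.79% of those hairpins. Repeats in the other 5 were 5 to 7 bases long.

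Levels are given as CPM, the reads on a gene's own strand scaled to a fixed total of reads assigned to miRNA genes. That total was 2843734 reads in replicate 1 and 3080062 in replicate 2. A count of 0 would allow up to 3 reads, which is 1.05 CPM in replicate 1 and in replicate 2 is 0.974 CPM, and this floor, like every interval below, covers counting error only. All 8 genes were far above it. All 8 had at least 1 CPM in both libraries, against 441 of the 2202 counted genes, and 7 had at least 100 CPM in both, against 190.

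Together the 8 genes took 3.24% of the counts in replicate 1 (95% Wilson interval 3.22 to 3.26) and 3.27% in replicate 2 (3.25 to 3.29). Their mean share was 3.26% ± 0.021 (SD, n = 2), which is 92212 and 100798 reads. In a bulk gland a lower level can come from fewer cells of a type or from less RNA per cell, and these cannot be told apart. Mir122, a miRNA typical of liver cells, had 29424 CPM in replicate 1 and 97850 CPM in replicate 2.

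**Figure D1:**
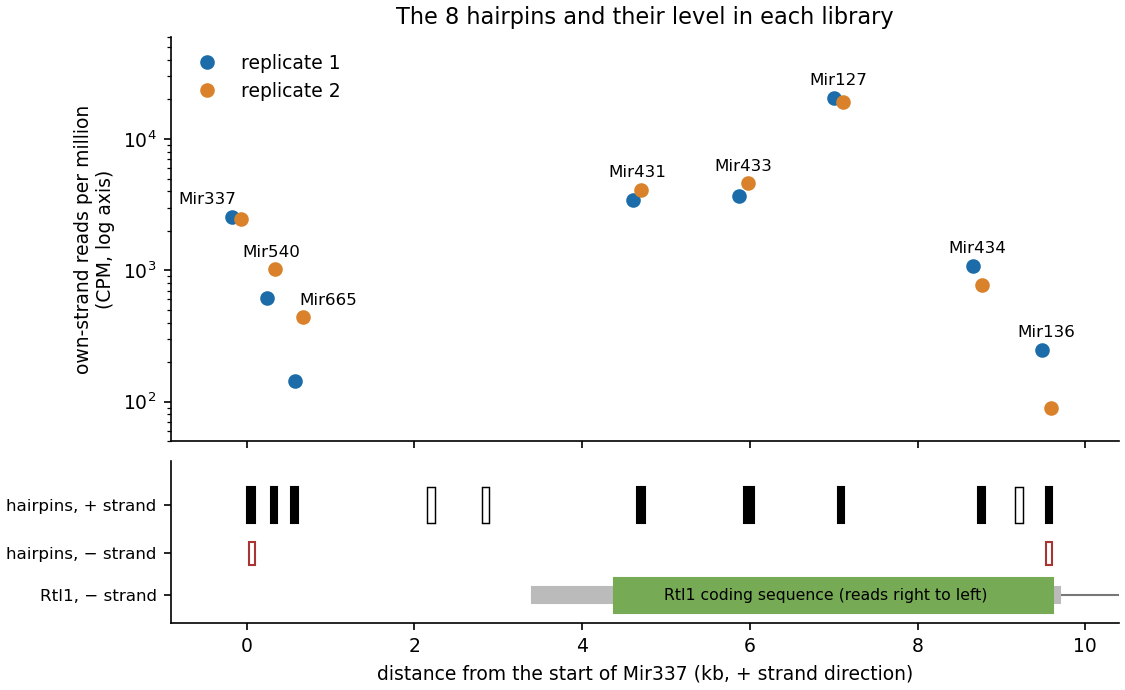
Level of each of the 8 hairpins in both libraries (top, own-strand CPM on a log axis) by distance from the start of Mir337 in kb, with filled boxes for the 8 hairpins, open boxes for other annotated miRNA genes, and the Rtl1 gene of GENCODE M21 with its coding sequence in green (bottom). Points are single libraries, moved slightly sideways for legibility, and hairpin boxes are not to scale; Mir127, in the middle of the coding sequence, stood highest, at 20668 CPM in replicate 1 and 19269 CPM in replicate 2.

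Mir127, studied in human cancer cells as a repressor of BCL6, led the set. It had 20668 CPM in replicate 1 and 19269 CPM in replicate 2, a mean of 19968 ± 989 CPM (SD, n = 2), and ranked 17th of all genes by mean. It held 63.7% of the reads of the 8 genes in replicate 1 and 58.9% in replicate 2. Both of its values lay more than 4-fold above every value of the other 7 genes.

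Mir433 had 3663 CPM in replicate 1 and 4596 CPM in replicate 2. Mir431, studied in the mouse for its part in muscle regeneration, had 3458 CPM in replicate 1 and 4091 CPM in replicate 2. These 2 neighbours in the coding sequence of Rtl1 overlapped in their values, so their order is not resolved by these libraries. Mir337, beyond the 3′ end of Rtl1, had 2550 CPM in replicate 1 and 2447 CPM in replicate 2. With these totals its values were the closest pair in the set, and both lay below those of Mir431.

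The other 4 genes were lower. Mir434 had 1079 CPM in replicate 1 and 774 CPM in replicate 2. Mir540 had 616 CPM in replicate 1 and 1018 CPM in replicate 2. Their values overlapped, and Mir434 was the higher in replicate 1 and Mir540 in replicate 2. Mir665 had 145 CPM in replicate 1 and 439 CPM in replicate 2. Mir136 had 248 CPM in replicate 1 and 90.3 CPM in replicate 2. Mir665 and Mir136 also overlapped and swapped places between the libraries, and both lay below all values of Mir540.

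Along the transcript the level therefore did not follow the order of the hairpins. Mir136, the last hairpin, had a mean of 169 ± 112 CPM (SD, n = 2), and Mir127, 2 hairpins before it, the highest of the set. The 5 hairpins inside the coding sequence held 89.8% of the reads of the 8 genes in replicate 1 and 88.1% in replicate 2. Libraries of fragments this short read mature miRNAs rather than stretches of the hairpin, so counts were not divided by length for these levels. Per 100 bases of hairpin, Mir431 (4148 CPM) stood above Mir433 (3330 CPM) and Mir540 (1219 CPM) above Mir434 (986 CPM), and the other places stayed as they were. Small RNA libraries capture different sequences with different efficiency, so levels of different hairpins compare reads, not molecules.

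**Figure D2:**
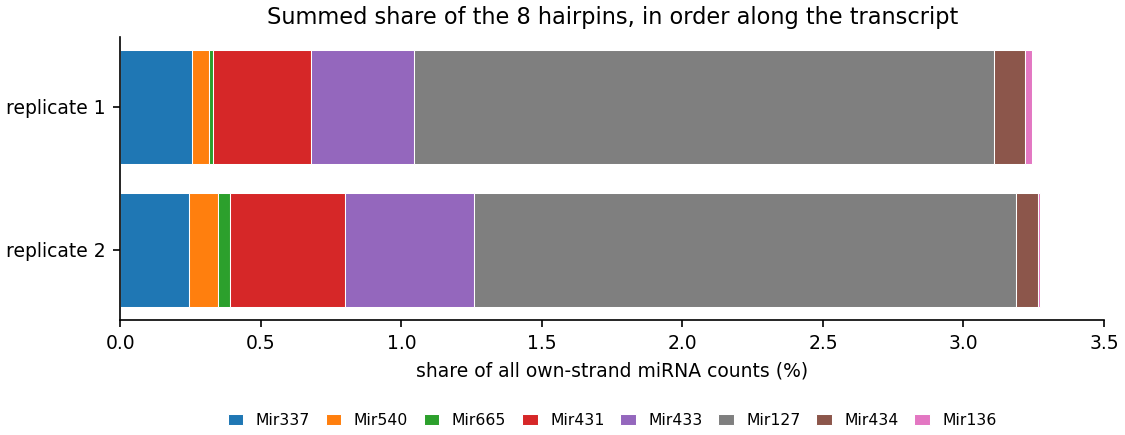
Share of all own-strand miRNA counts taken by each of the 8 hairpins in replicate 1 (top bar) and replicate 2 (bottom bar), in percent, stacked in order along the transcript. The bars end at 3.24% and 3.27%, Mir127 fills most of each, and the thin segments of Mir540, Mir665 and Mir136 differ in width.

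Counting by strand mattered for 2 of the 8. Mir337 overlaps Mir3544 on the other strand by 61 bases, and Mir136 lies wholly inside Mir3071, an overlap of 62 bases. On its own strand Mir337 had 7251 reads in replicate 1 and 7538 in replicate 2, but without regard to strand only 5 in replicate 1 and 6 in replicate 2. All of its own-strand reads overlapped Mir3544, so those 5 and 6 reads were on the other strand. Mir136 had 706 reads in replicate 1 and 278 in replicate 2 on its own strand, and 0 in both without regard to strand. The other 6 genes had identical read counts in both columns.

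The partner strands held few reads. Mir3544 had 82 reads in replicate 1 and 80 in replicate 2. That was 1.12% of the reads of the Mir337 and Mir3544 pair in replicate 1 (95% Wilson interval 0.902 to 1.39) and 1.05% in replicate 2 (0.845 to 1.30). Mir3071 had 0 reads in replicate 1, which allows up to 0.425% of the reads of its pair with Mir136, and 1 read in replicate 2, 0.358% of the pair (0.0633 to 2.00). The strand of Rtl1 thus gave a low level of short reads at Mir337 in both libraries and none above the floor at Mir136. The mature miRNAs annotated for Mir3544 are shown with their seeds in capitals, for comparison with those of Mir337.
miR-3544-5p: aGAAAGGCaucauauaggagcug
miR-3544-3p: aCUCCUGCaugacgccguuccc

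**Figure D3:**
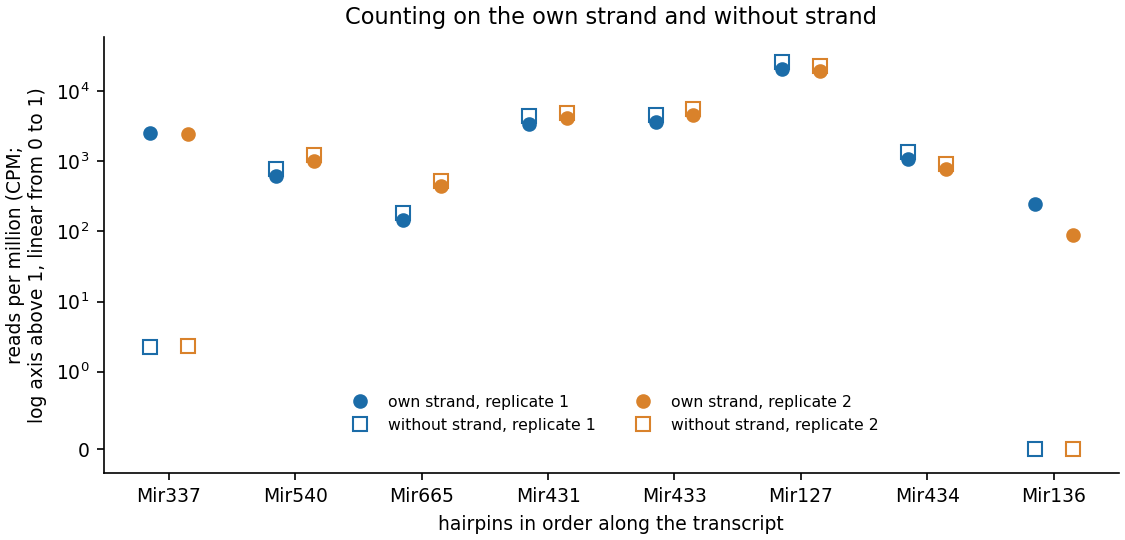
CPM of the 8 hairpins on their own strand (filled circles) and without regard to strand (open squares) in replicate 1 (blue) and replicate 2 (orange), in order along the transcript; the axis is logarithmic above 1 CPM and linear below. Mir337 and Mir136 drop to about 2 and to 0 CPM without strand, and the other 6 keep their place.

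Another 3 annotated genes lay among the 8 on the same strand. Mir3070a had 14.4 CPM in replicate 1 and 8.12 CPM in replicate 2, and Mir3070b 4.57 CPM in replicate 1 and 11.4 CPM in replicate 2. The hairpins of Mir3070a and Mir3070b share a run of 18 bases and a whole mature miRNA. Multiply mapped reads are in a row apart that was left out, so the levels of this pair may be too low. Mir432, between Mir434 and Mir136 in the coding sequence, had 0 reads in both libraries. Of the reads assigned to single miRNA genes annotated on this strand within the span, the 8 described here thus held nearly all.

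The 2 libraries differed in how the reads were spread over the 8 genes, while the sum was nearly equal. The log2 ratio of the summed CPM, replicate 1 over replicate 2, was -0.01 (95% counting interval -0.03 to -0.00037). That near equality rests on Mir127 and on the totals. The ratio was -0.19 with Mir127 left out of the sum and -0.12 with Mir122 left out of the totals. Set against the library totals in an exact binomial test (two-sided, Benjamini-Hochberg adjusted over 444 genes), all 8 genes passed, and so did 59.0% of all genes tested. That test compares these 2 libraries against counting error, not conditions, and most genes of this depth pass it. With a minimum of 100 counts in the 2 libraries together, it called 80.4% of 285 genes. In the direction of replicate 1 it called 4 of the 8, against 30.4% of tested genes, and in the other direction 4 of the 8, against 28.6%. With a difference of at least 2-fold it called 2 of the 8, Mir665 and Mir136, against 17.3%.

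Mir665 was lower in replicate 1, with 412 reads against 1353 in replicate 2 and a log2 ratio of -1.60 (95% counting interval -1.76 to -1.44). Its adjusted p in the exact binomial test was 3.8e-100. Mir136 was higher in replicate 1, with a log2 ratio of 1.46 (1.26 to 1.67) and an adjusted p of 9.5e-51 in the same exact test. Mir665 and Mir136 thus lay at opposite ends of the range of ratios. Mir136 is the last hairpin of the span, but the first is Mir337 (0.06), not Mir665. Mir540 was lower in replicate 1 (-0.72), as were Mir433 (-0.33) and Mir431 (-0.24), where Mir431 was at 0.0061 in the residuals of a line fitted to hairpin GC content. Mir434 was higher in replicate 1 (0.48). Mir127 (0.10) and Mir337 (0.06) were also called higher, but with Mir122 left out of the totals they stood at -0.0044 and -0.05 and only 6 of the 8 were called, 2 of them higher in replicate 1.

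The median log2 ratio of the 8 genes was -0.09, beside -0.07 for all 444 tested genes. The median size of the difference, regardless of direction, was 0.40 among the 8 and 0.56 among all tested genes. Scaling by all reads in the files moved the median of all tested genes to 0.06 and that of the 8 to 0.04, a change of totals that shifts all ratios alike. In the residuals of the line fitted to hairpin GC content, the median of the 8 was 0.07 and that of all tested genes -0.01, so which of the medians was the higher depended on that step. When edgeR's exact test was given 1 common dispersion for all genes (a biological coefficient of variation of 0.394), 0 of the 8 passed the adjusted threshold and 0 had an unadjusted p under 0.05. Over all tested genes that test called 0.450%, and 5.18% had an unadjusted p under 0.05. The dispersion came from the very libraries compared, which limits the calls it can make.

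**Figure D4:**
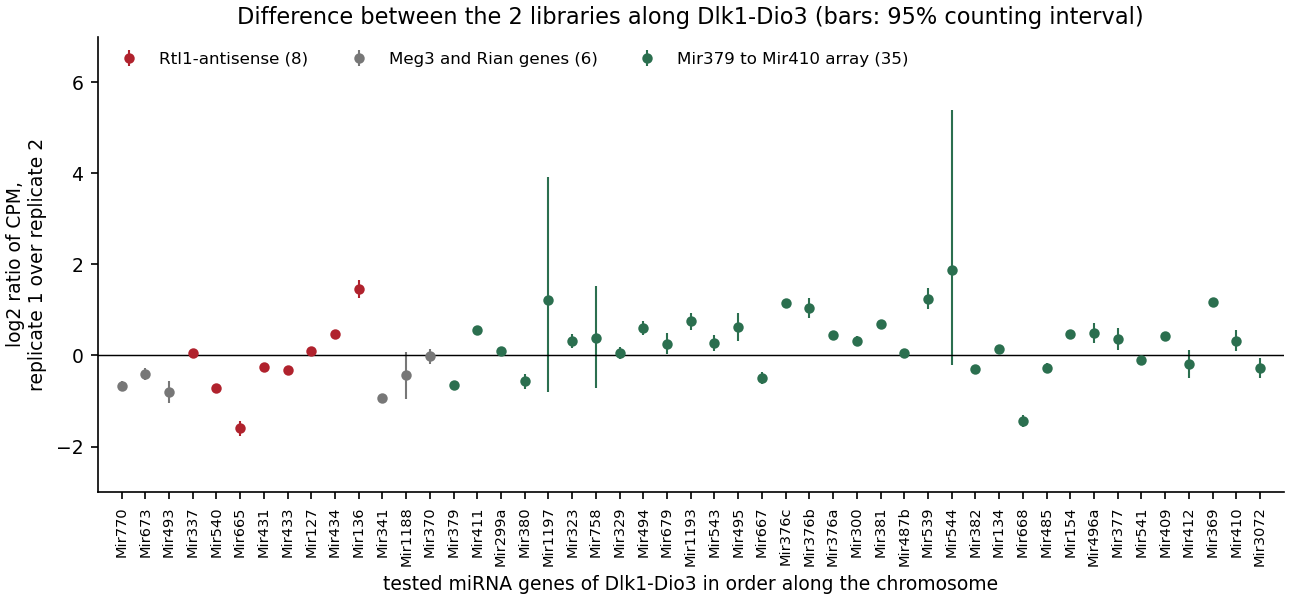
Log2 ratio of CPM, replicate 1 over replicate 2, for the 49 tested miRNA genes of Dlk1-Dio3 in order along the chromosome; bars are 95% counting intervals, and 0 means equal CPM. The Rtl1-antisense genes (red) lie between -1.60 at Mir665 and 1.46 at Mir136, and the 6 tested genes of Meg3 and Rian (grey) all lie below 0.

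Neighbouring genes of the same imprinted region gave a frame for these values. The Mir379 to Mir410 array downstream, with 38 of 39 listed genes matched, held 4.73% of the counts in replicate 1 and 4.48% in replicate 2. The 8 Rtl1-antisense genes had 0.685 times as many reads as that array in replicate 1 and 0.731 times in replicate 2, from fewer genes. Their median level was 1713 CPM, against 220 CPM over all 38 array genes. The array was led by Mir411 with 13532 CPM in replicate 1 and 9164 CPM in replicate 2, Mir379 with 6418 and 10130 CPM, and Mir541 with 5962 and 6419 CPM. Mir127 was above all of them in both libraries.

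Of the 35 array genes tested, 22 were called higher in replicate 1, 8 lower and 5 were not called, with a median log2 ratio of 0.33. The 8 Meg3 and Rian genes on either side of the span held 0.160% of the counts in replicate 1 and 0.256% in replicate 2. Of the 6 tested there, 0 were called higher in replicate 1, 4 lower and 2 were not called, with a median of -0.55. The Rtl1-antisense genes thus split evenly between directions, and their median lay between those of the flanking genes and of the array. These differences between the lists were not tested.

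Base composition moved with the ratio. Mir136, the highest ratio, had mature miRNAs with a mean GC content of 36.4%, and Mir665, the lowest ratio, had 61.3%. Over the 8 genes the ratio and the mean GC content of the mature miRNAs had a Pearson's r of -0.88 and a Spearman's rho of -0.86. Without Mir665 and Mir136 r was -0.60 (n = 6), so the relation rests in part on these genes. With the GC content of the whole hairpin r was -0.68. Over the 35 tested array genes r with mature GC content was -0.56, and over the 397 tested genes with a mature sequence in RefSeq it was -0.26. The measure was chosen after the ratios were seen, and the genes share both libraries and are not independent replicates.

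Position along the transcript moved with the ratio too, with r of 0.76 and rho of 0.71 over the 8 genes, and position and mature GC content were themselves related (r of -0.59). Without Mir665 and Mir136, r was 0.61 between position and ratio and -0.15 between position and mature GC content (n = 6), so the relation of the 2 measures rests largely on these genes. The part of base composition, of position and of tissue content in the difference between the libraries was not tested.

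**Figure D5:**
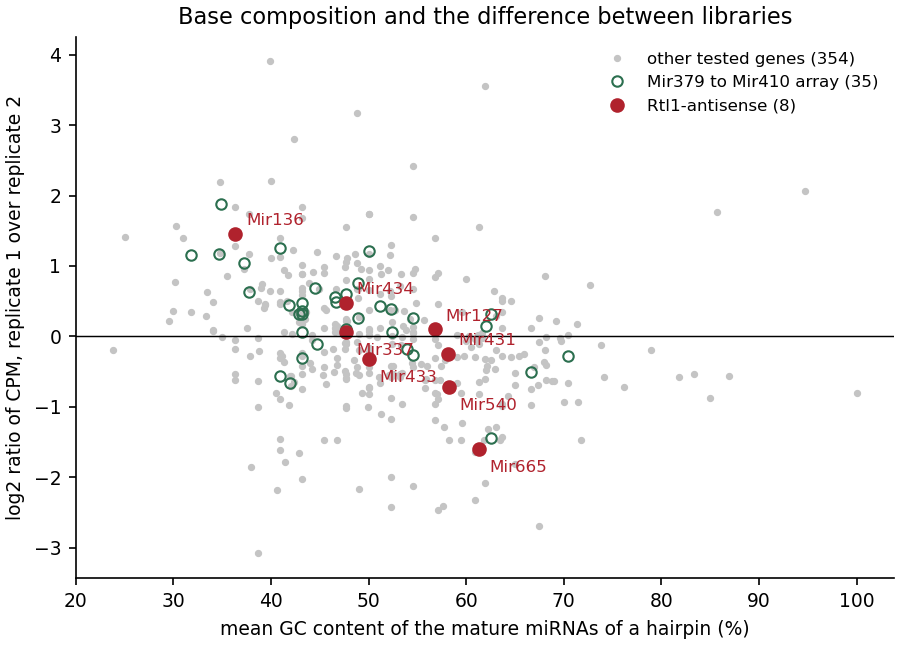
Log2 ratio of CPM, replicate 1 over replicate 2, against the mean GC content of a hairpin's mature miRNAs in percent, for the 8 Rtl1-antisense genes (red), the 35 tested genes of the Mir379 to Mir410 array (open green) and the other tested genes with a mature sequence (grey). The red points fall from Mir136 at 36.4% GC to Mir665 at 61.3%, while the grey points are widely scattered.

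Markers of other cell types also differed between the libraries. Striated muscle markers summed to 0.0929% of the counts in replicate 1 and 0.334% in replicate 2, with 4 of 9 detected in both libraries and Mir133a-2 at 0. Mir206 carried that sum, with 2612 of its 2642 reads in replicate 1 and 10179 of 10279 in replicate 2. Of the 4 tested, 3 were called lower in replicate 1, among them Mir133b with only 2 reads in replicate 1 and 14 in replicate 2. Mir1a-2, with 3 reads in replicate 1 and 4 in replicate 2, was detected but too low to be tested. Markers of kidney and other epithelia summed to 0.132% in replicate 1 and 0.122% in replicate 2, with all 7 detected. Mir203 carried that sum and was the only one called higher in replicate 1, while 5 of the 7 were called lower and the median log2 ratio was -0.72. Red cell markers, 2 of 2 detected, summed to 0.0703% in replicate 1 and 0.0280% in replicate 2. Neuronal markers, 1 of 7 detected, held 0.0766% in replicate 1 and 0.0457% in replicate 2. Mir137 carried that sum, with 2175 of 2177 reads in replicate 1 and 1407 of 1408 in replicate 2. Mir124a-1, Mir124a-3, Mir9-1 and Mir9-2 were at 0. The Mir124a, Mir9 and Mir133a genes exist in copies that give the same mature miRNA, and multiply mapped reads are in a row apart, so these zeros do not show that the miRNAs were absent. Counts of other copies in these lists, Mir1a-1 and Mir1a-2 or Mir7-1 and Mir7-2, may be too low for the same reason. Leukocyte markers, 3 of 3 detected, summed to 0.0826% in replicate 1 and 0.129% in replicate 2, a difference carried by Mir150, as Mir142 and Mir223 were not called. Endothelial Mir126a took 8.43% in replicate 1 and 4.52% in replicate 2, and smooth muscle markers, 2 of 2 detected, 3.86% in replicate 1 and 3.20% in replicate 2. Of these, Mir143 was called higher in replicate 1 (log2 ratio 0.31) and Mir145a lower (-0.50). The endocrine and neuroendocrine markers that fit the labelled gland, 4 of 4 detected and led by Mir375, held 3.99% in replicate 1 and 3.78% in replicate 2. Mir375 was not called (-0.01), and Mir7-1 (0.67), Mir7-2 (1.19) and Mir7b (0.76) were called higher in replicate 1.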

How the data were processed

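Per the file descriptions, the authors deposited raw read counts for each miRNA gene and library on mm10 with GENCODE M21. Which aligner and counter made them is not stated in the sources used here. The values show 3 count columns (without strand, own strand, opposite strand). The 4 rows of unassigned reads were left out, among them multiply mapped reads (27.5% of the file in replicate 1, 25.9% in replicate 2) and unmapped reads (26.4% in replicate 1, 32.0% in replicate 2). Own-strand counts were the main measure.

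CPM used the own-strand total. Ratios are replicate 1 over replicate 2 with 0.5 counts added. Genes with 10 or more counts in the 2 libraries together entered an exact binomial test, adjusted by Benjamini-Hochberg and called under 0.05. Setting the 2 libraries against each other leaves a quasi-likelihood test no residual degrees of freedom, so p-values compare 2 libraries, each from 1 male, against counting error. Members, lists and tests were chosen with earlier results of these data known. Named genes were the 8 members, other miRNA genes within their span, the 3 highest array genes and Mir122; markers and the gene that shares a seed were named besides.

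Alternatives were counts without strand, TMM and DESeq2 factors, other totals, count minimums and pseudocounts, and edgeR's exact negative binomial test. GC residuals, hairpin length, an array defined by position, Mir127 left out and a 2-fold limit were added after seeing the data. The binomial test was tested on simulated Poisson counts with no variation between animals, so that check does not bear on such variation. Python 3.11.15 was used with scipy 1.17.1, pandas 2.3.3, matplotlib 3.10.9 and numpy 2.4.6, and R 4.3.3 with DESeq2 1.42.0 and edgeR 4.0.16.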

Additional observations from a re-analysis of the deposited data

Results flagged for a closer look

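Reads on the opposite strand of Mir337, outside its own-strand counts, numbered 87 in replicate 1 and 86 in replicate 2, above the 3 reads that a count of 0 allows. Of the 8 genes it was the only one with such a signal in both libraries, and Mir136 had 0 and 1. The annotated Mir3544, which lies inside Mir337 on that strand, had 82 and 80 own-strand reads. Most of the reads opposite Mir337 are therefore those already given above for Mir3544.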

How the results depend on the processing

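No paired analysis was possible because the series holds 1 group. Against 8 members called in the exact binomial test, the negative binomial test called 0 and a 2-fold limit left 2. The summed log2 ratio, -0.013, was 0.049 without strand, 0.052 with TMM factors, -0.040 with DESeq2 factors, -0.12 with Mir122 left out, 0.12 with all reads as totals and -0.19 with Mir127 left out. The median ratio, -0.09, was -0.17 without strand, -0.027 with TMM factors, -0.20 with Mir122 left out, 0.041 with all reads as totals and 0.071 in GC residuals. The summed share, 3.26%, was 3.68% without strand, 3.48% with Mir122 left out, 1.18% of all reads and 1.26% with Mir127 left out. Without strand Mir127 held 66.8% of the set's reads, against 61.3%. Mir337 stood at -0.050 without strand, but this rests on 5 and 6 reads, none of them on its own strand. With Mir122 left out Mir337 turned to -0.046 and Mir127 to -0.0044. Mir431 stood at 0.0061 in GC residuals. Mir337 also lost its call with DESeq2 factors (adjusted p = 0.248 in the exact binomial test). The other 58 of 63 alternatives of single ratios kept their direction and, where tested, their call. The ratio to the array lay between 0.685 and 0.731, the summed share between 3.24% and 3.27% and the share of Mir127 between 58.9% and 63.7% with 1 library at a time. Without strand the reads of Mir337 and Mir136 drop out by construction, and changed totals shift all ratios alike. GC residuals are ratios less a fitted line, so 0 there means on the line and not equal CPM. With 2 libraries, differences under the spread between them cannot be resolved.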
